A study of Homo sapiens with 6 samples.

Results

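The genes described here encode secreted and membrane-bound metalloproteases and their inhibitors, measured after silencing of SAM68, an RNA-binding splicing factor encoded by KHDRBS1. They were chosen by symbol alone, as every locus named as a matrix metalloprotease (MMP), a disintegrin and metalloprotease (ADAM), an ADAM with thrombospondin motifs (ADAMTS), an ADAMTS-like protein (ADAMTSL) or a tissue inhibitor of metalloproteases (TIMP). This gave 73 of the 74852 annotated loci, made up of 23 MMP, 22 ADAM, 19 ADAMTS, 5 ADAMTSL and 4 TIMP loci. The cells were MDA-MB-231, an established human line of triple-negative breast cancer (TNBC). They received a pool of control siRNAs (si-CTRL) or one directed at SAM68 (si-SAM68) in 2 rounds of lipid transfection, and RNA was taken 24 h after the second round. Each group had 3 libraries of polyadenylated RNA, and both groups went through the same transfections. The silencing was transient and rested on 1 pool in 1 cell line, and the labels do not say whether the libraries of a group came from separate cultures, so p-values measure the spread between these libraries.

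Metalloproteases of these families cut proteins with a zinc ion held in the active site. MMPs degrade collagens and other matrix proteins, and ADAMs with an active site release the outer parts of membrane proteins, a step called shedding. ADAMTS enzymes cut proteoglycans and procollagens or other matrix proteins, whereas ADAMTSL proteins share their accessory domains but lack the protease. Most of these enzymes are made as inactive proenzymes, many of which are opened by the convertase furin, and TIMPs block the active site. In breast cancer cells they are studied for their part in invasion and in the release of growth factors.

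The 6 libraries held between 52625492 and 82568487 reads, of which 0.305% to 0.343% lay on the 73 loci (180308 to 255296 reads). KHDRBS1 fell from 14483 to 15660 normalized reads per si-CTRL library to 583.3 to 670.2 per si-SAM68 library, which left 4.13% of the control mean. Vimentin (VIM) was abundant, PGR was listed at 0, CDH1 and EPCAM were under 10 in each library and ESR1 reached at most 15.2, while ERBB2 lay at a mean of 2822 in si-CTRL. Markers of other cell types were read over whole lists. The 4 endothelial markers summed to 49.4 to 76.2 in si-CTRL against 31.3 to 35.7 in si-SAM68 cells, with KDR listed at 0, and the 6 leukocyte markers summed to 98.8 to 129.3 against 79.6 to 83.7, with 5 of the 6 averaging under 10. Of the 7 fibroblast markers, which this mesenchymal line also expresses in part, DCN and LUM averaged under 10, and the list summed to 151030 to 186327 against 143372 to 180765. Of this sum, COL1A1 alone held 145926 to 181387 in si-CTRL and 138281 to 175815 in si-SAM68 cells. COL1A2, COL3A1, PDGFRB and the joint locus FIP1L1 // PDGFRA had si-CTRL means of 39.0, 34.7, 710 and 4747. The part of other cells in the results was not tested. One ribosomal RNA locus took 15.1% of the reads of si-SAM68 replicate 2 and at most 3.17% of any other library.

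Of the 73 loci, 48 had a mean of at least 10 normalized reads and were tested. Another 11 were listed at 0 in all 6 libraries (MMP8, MMP26, MMP27, ADAM2, ADAM5, ADAM6, ADAM7, ADAM18, ADAM28, ADAM29 and ADAM30), which allows up to 3 reads in each library, or 2.76 to 3.75 normalized reads. The remaining 14 had reads but a mean under 10, and comprised MMP7, MMP10, MMP11, MMP12, MMP20, MMP21, TIMP4, ADAM33, ADAMTS3, ADAMTS4, ADAMTS8, ADAMTS19, ADAMTS20 and ADAMTSL2. These cells thus gave testable signal for 14 of 23 MMP, 13 of 22 ADAM, 14 of 19 ADAMTS, 4 of 5 ADAMTSL and 3 of 4 TIMP loci.

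To compare levels between genes, normalized reads were divided by the length of exon sequence in kilobases (kb). In si-CTRL cells the order was led by MMP14, a membrane-anchored collagenase that also activates pro-MMP2, with a mean of 9974 per kb, and by the sheddase ADAM9 with 9789 per kb. Those 2 neighbours overlapped, since MMP14 ranged from 8309 to 11711 and ADAM9 from 9632 to 10065 per kb. TIMP2 (6667), ADAM19 (5496), TIMP1 (4213), ADAMTS1 (2307) and ADAM15 (2061) followed. TIMP2 stood above ADAM19 and ADAM19 above TIMP1 without overlap of the 3 control libraries, whereas ADAMTS1 and ADAM15 overlapped. ADAM10 (481), ADAM17 (366), the interstitial collagenase MMP1 (291), TIMP3 (273) and the gelatinase MMP2 (240) came next, with MMP1 overlapping both ADAM17 and TIMP3. In si-SAM68 cells MMP1 lay at 124 per kb, below MMP2 (301) and TIMP3 (328).

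**Figure D1:**
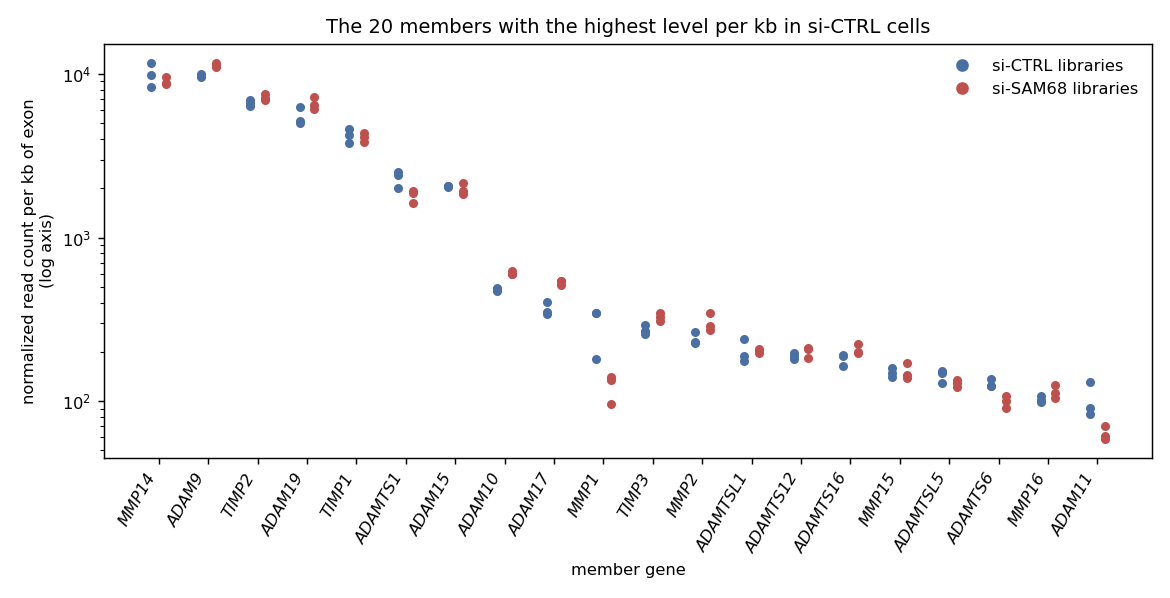
Normalized reads per kb of exon (log axis) for the 20 members with the highest mean level in si-CTRL cells, with points for each library of both groups. MMP14 and ADAM9 lead with si-CTRL means of 9974 and 9789 per kb, and the mean of MMP1 drops from 291 to 124.

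Under the thresholds of the study (p not above 0.05 together with a fold change of 1.5 or more), 5 of the 48 tested genes (10.4%) were regulated, and all 5 were lower in si-SAM68 cells: MMP1, ADAM11, ADAM23, ADAM32 and ADAMTS17. Over all 18849 loci tested the share was 7.67%, with 4.83% lower and 2.83% higher. An adjusted p under 0.05 was reached by 7 of 48 (14.6%), against 10.7% of all loci. MMP1, ADAM11, ADAMTS17, ADAMTSL3 and ADAMTS6 were lower in that set (background 6.23%), and the sheddases ADAM10 and ADAM17 were higher (background 4.47%). The values of the groups did not overlap for 20 of 48 genes (41.7%), 12 of them lower and 8 higher, against 33.9% of all loci (17.3% lower and 16.6% higher). With 3 libraries a side an exact permutation test of a single gene cannot go below p = 0.1, so p-values come from the limma fit over all loci. The median log2 fold change was -0.14 over the 48 genes, with 19 above and 29 below 0. Over all loci it was 0.01, with 9591 above and 9258 below 0. ADAM21 and ADAMTS9 reached a mean of 10 through si-CTRL alone and ADAM20 through si-SAM68 alone. Their direction was therefore not independent of the filter. In bulk RNA, fewer cells expressing a gene and less of its RNA per cell cannot be told apart. With the replicate number as a block, 4 genes kept an adjusted p under 0.05 (MMP1, ADAM10, ADAM11 and ADAM17). Leaving out single libraries gave from 11 such genes (without si-CTRL replicate 1) to 3 (without si-CTRL replicate 3), 2 (without si-SAM68 replicate 1 or 2) and 1 (without si-SAM68 replicate 3).

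**Figure D2:**
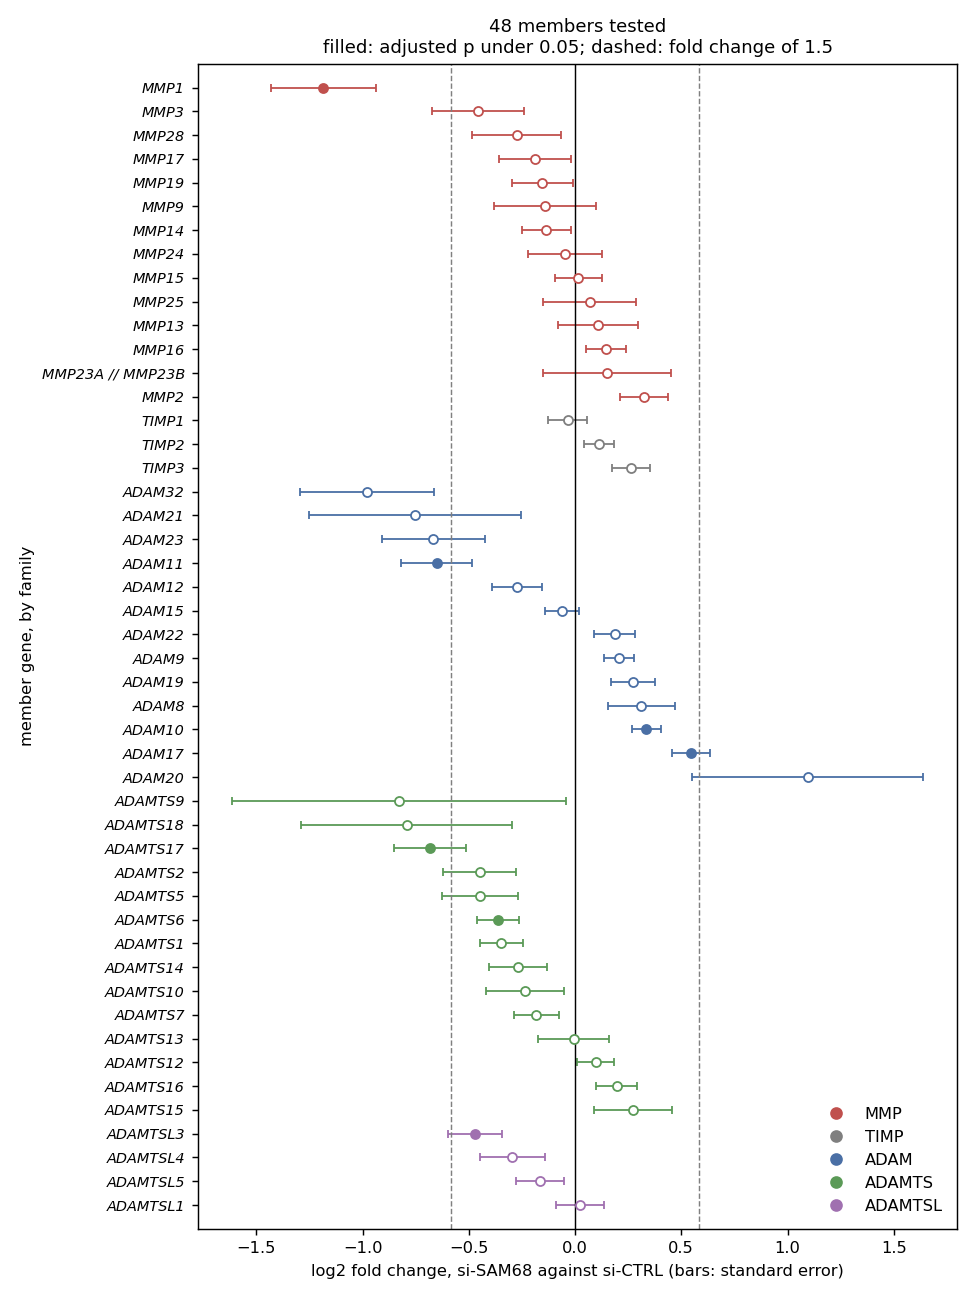
Log2 fold change of si-SAM68 against si-CTRL with its standard error for the 48 tested members, grouped by family, with filled points for an adjusted p under 0.05 and dashed lines at a 1.5-fold change. MMP1 lies lowest at -1.18, and among filled points only ADAM10 (0.34) and ADAM17 (0.55) lie above 0.

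The catalytic proteases share a stretch of 33 coding bases, the extended zinc-binding motif of the metzincins, which is shown for the catalytic members that changed and for ADAMTS1 as a variant form. The sequences were read from GENCODE release 29 transcripts on GRCh38, 5′ to 3′ on the coding strand, with capitals for the codons of the conserved histidines, glutamate and glycine. In MMP1 the motif lies within exon 5 of 10 (chr11:102795549-102795581), and in ADAM17 within exon 11 of 19 (chr2:9510078-9510110). It is split by an intron in ADAM10 between exons 9 and 10 of 16 (chr15:58627881-58633225), in ADAMTS17 between exons 8 and 9 of 22 (chr15:100155305-100199334), in ADAMTS6 between exons 9 and 10 of 25 (chr5:65300116-65329394) and in ADAMTS1 between exons 3 and 4 of 9 (chr21:26841143-26841867). All 6 genes are on the minus strand. ADAMTS1 carries a codon for asparagine in place of the glycine, as did ADAMTS9 and ADAMTS15.
MMP1: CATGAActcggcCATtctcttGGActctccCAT
ADAM10: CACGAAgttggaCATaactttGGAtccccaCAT
ADAM17: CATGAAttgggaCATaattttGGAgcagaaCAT
ADAMTS17: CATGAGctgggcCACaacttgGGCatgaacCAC
ADAMTS6: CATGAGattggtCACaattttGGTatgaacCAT
ADAMTS1: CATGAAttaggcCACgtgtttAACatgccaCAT
The glycine form was present in a coding transcript of all 13 tested MMP loci with a single symbol, of 9 of 13 tested ADAM loci and of 11 of 14 tested ADAMTS loci. It was absent from the tested TIMP and ADAMTSL loci and from ADAM11, ADAM22, ADAM23 and ADAM32.

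MMP1, the interstitial collagenase that opens the triple helix of fibrillar collagens, fell most among the tested members. Its locus (GSHG0006129; hg19 chr11:102660641-102671122) held 679.9, 356.4 and 681.6 normalized reads in the si-CTRL libraries and 190.4, 264.0 and 278.1 in the si-SAM68 libraries. Values per library are given in replicate order, and reads stand for normalized reads throughout the gene descriptions. Every si-SAM68 library lay below every si-CTRL library, and the lowest control, replicate 2, was the nearest to them. The mean went from 573 ± 187 to 244 ± 47.1 (SD, n = 3), or 42.6% of the control (log2 fold change -1.18, SE 0.25, limma adjusted p = 0.0163). The call at the study thresholds held in all alternatives, and the log2 fold change ranged from -1.49 to -1.02. The adjusted p passed 0.05 without si-CTRL replicate 3 (0.0508), si-SAM68 replicate 1 (0.0744) or si-SAM68 replicate 3 (0.0602), and was 0.0798 without the trend.

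MMP1 lies in a cluster of MMP genes on chromosome 11 (hg19 chr11:102391239-102826463) that also holds MMP7, MMP20, MMP27, MMP8, MMP10, MMP3, MMP12 and MMP13. Only MMP1, MMP3 and MMP13 had enough reads to be tested. MMP3 (stromelysin), which cuts proteoglycans and can activate proMMP1, had 113.7, 89.1 and 148.3 reads in si-CTRL against 70.5, 84.6 and 96.1 in si-SAM68 cells. The groups overlapped (log2 fold change -0.46, adjusted p = 0.206). MMP13, a further collagenase, had 99.99, 87.2 and 118.8 against 90.7, 126.9 and 112.8 reads, with overlapping groups as well (log2 fold change 0.11, adjusted p = 0.758). Its sign turned without si-SAM68 replicate 2, and a difference from MMP1 was not tested. The matrilysin MMP7 held 2.50, 7.75 and 5.70 against 10.1, 1.84 and 6.70 reads, and the stromelysin MMP10 6.25, 5.81 and 5.70 against 12.1, 1.84 and 6.70. Both were too low for a test. MMP12 and MMP20 had a few reads at most (up to 7.36 and 0.951 in a library), and MMP8, MMP27 and the 5 loci of the interval that are no MMP genes were listed at 0.

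The gelatinases, which cut denatured collagen and type IV collagen, did not pass either threshold. MMP2 held 1262, 1066 and 1088 reads in si-CTRL against 1630, 1361 and 1292 in si-SAM68 cells. All 3 si-SAM68 libraries were above all controls, by a small margin (log2 fold change 0.32, SE 0.11, adjusted p = 0.097). MMP9 held 80.0, 72.6 and 46.6 against 62.5, 51.5 and 62.6 reads, with overlapping groups (adjusted p = 0.749). Among the 6 membrane-type MMPs tested the log2 fold change ranged from -0.19 (MMP17) to 0.15 (MMP16), with 3 above and 3 below 0. MMP14, the most abundant of them, had 43705, 31011 and 36950 reads against 32279, 35671 and 32794, so that the si-SAM68 values lay inside the control range (log2 fold change -0.14, adjusted p = 0.488). The MMP14 locus lies whole within the annotated extent of DAD1, whose own log2 fold change was -0.36 (adjusted p = 0.0109), and reads of overlapping loci may be shared. MMP19, MMP28 and the joint locus MMP23A // MMP23B lay between -0.28 and 0.15. Of these 3 only MMP28 had groups that did not overlap, at 59.3 ± 5.37 against 49.1 ± 7.62 (SD, n = 3; adjusted p = 0.436).

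TIMPs bind the active site of MMPs one to one, and TIMP3 also inhibits ADAM17 and several ADAMTS enzymes. None of the 3 tested TIMPs passed a threshold. TIMP1 held 6747, 5534 and 6161 reads in si-CTRL against 6377, 6002 and 5588 in si-SAM68 cells, with overlapping groups (log2 fold change -0.04, adjusted p = 0.846). TIMP2, which also assists MMP14 in opening pro-MMP2, held 28232, 27170 and 26098 against 30799, 28911 and 28458 reads. Its groups did not overlap but lay close (log2 fold change 0.11, adjusted p = 0.344). TIMP3 held 1350, 1177 and 1242 against 1511, 1594 and 1419 reads, with all si-SAM68 libraries higher (log2 fold change 0.26, SE 0.09, adjusted p = 0.0942). TIMP4 was not tested, at 7.499, 4.84 and 11.4 against 3.02, 5.52 and 0.

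Ratios of normalized reads within a library compare libraries and not the amounts of both genes. The ratio of MMP1 to TIMP1 was 0.101, 0.0644 and 0.111 in si-CTRL against 0.0299, 0.044 and 0.0498 in si-SAM68 libraries, with no overlap. MMP14 to TIMP2 gave 1.55, 1.14 and 1.42 against 1.05, 1.23 and 1.15, which overlapped. ADAM17 to TIMP3 was 1.32, 1.32 and 1.22 against 1.51, 1.496 and 1.69, higher in every si-SAM68 library. These ratios were not tested and reuse the values given for the single genes.

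**Figure D3:**
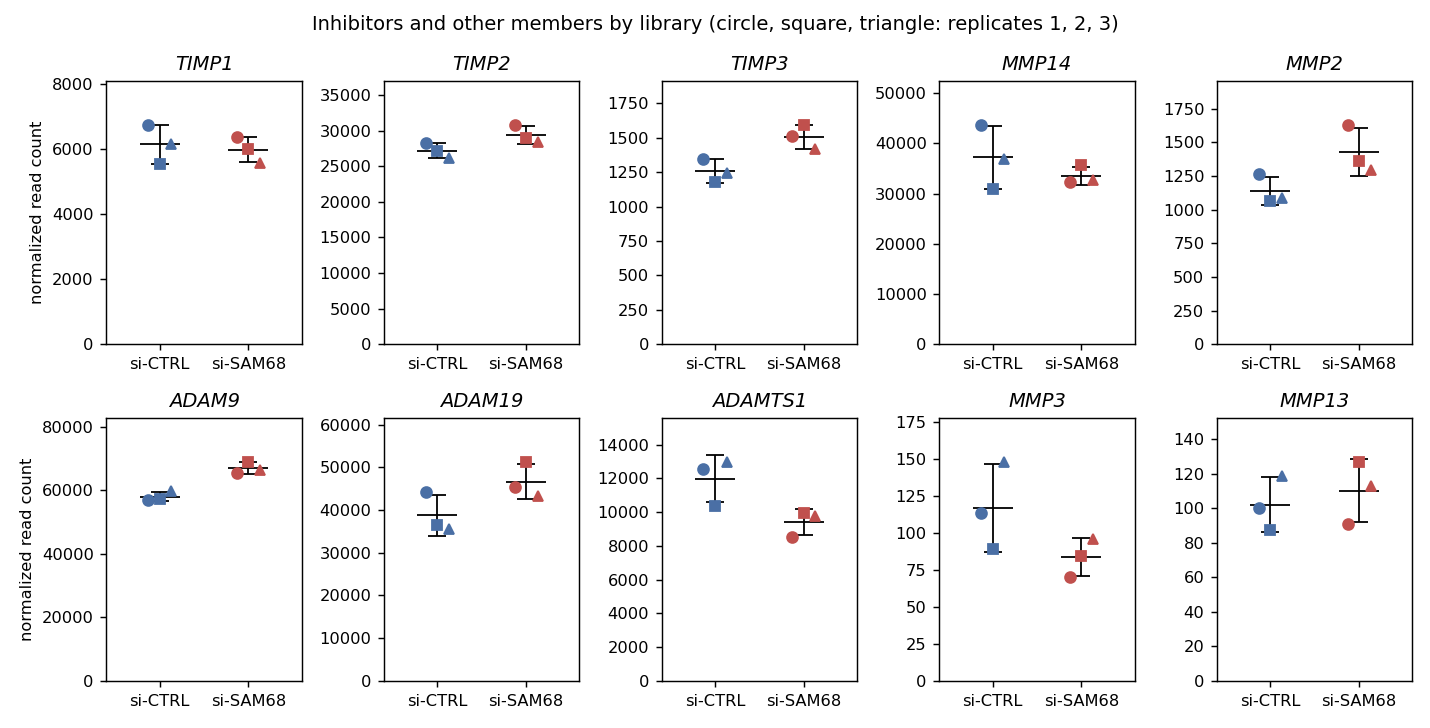
Normalized reads per library for TIMP1, TIMP2, TIMP3, MMP14, MMP2, ADAM9, ADAM19, ADAMTS1, MMP3 and MMP13, with the mean and SD of each group of 3 and symbols for the replicate number. TIMP2, TIMP3, MMP2 and ADAM9 are higher and ADAMTS1 lower in all si-SAM68 libraries, and the other panels overlap.

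The 2 main sheddases were both higher in si-SAM68 cells. ADAM10 releases the outer parts of NOTCH receptors and cadherins among others, and ADAM17 (also called TACE) those of TNF, of the IL-6 receptor and of ligands of the EGF receptor. The ADAM17 locus (GSHG0017416; hg19 chr2:9628623-9695949) held 1784, 1551 and 1512 reads in si-CTRL against 2275, 2384 and 2398 in si-SAM68 cells. The si-SAM68 libraries lay close together and well above the controls. The mean went from 1616 ± 147 to 2352 ± 67.7 (SD, n = 3), a 1.46-fold increase (log2 fold change 0.55, SE 0.09, adjusted p = 0.00574) that was just under the fold threshold. ADAM17 kept an adjusted p under 0.05 in all 18 alternatives, with log2 fold changes of 0.50 to 0.62, and passed 1.5-fold without si-CTRL replicate 1. It overlaps IAH1 by 8050 bases, and IAH1 had a log2 fold change of 0.10 (adjusted p = 0.671).

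ADAM10 (GSHG0010456; hg19 chr15:58887403-59042186) held 6153, 6347 and 6446 reads in si-CTRL against 7878, 8238 and 7804 in si-SAM68 cells. The replicates of each group were tight, and the groups stood apart. The mean went from 6315 ± 149 to 7973 ± 232 (SD, n = 3), or 1.26-fold (log2 fold change 0.34, SE 0.07, adjusted p = 0.0156). The adjusted p passed 0.05 without si-SAM68 replicate 1 (0.0509), 2 (0.0944) or 3 (0.0596), and was 0.061 without the trend, while the log2 fold change stayed between 0.31 and 0.35. The ratio of ADAM10 to ADAM17 was 3.45, 4.09 and 4.26 in si-CTRL against 3.46, 3.45 and 3.25 in si-SAM68 libraries. These ratios overlapped between the groups.

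ADAM10 and ADAM17 were the only members higher at an adjusted p under 0.05, and whether they move together was not tested. The 250 bases before the start of each are shown from the RefSeq promoter table (GRCh38.p14, minus strand for both), with GC boxes in capitals. A GC box was searched as GGGCGG on both strands, and an AP-1 site, known from MMP promoters, as TGAGTCA on both strands. The stretch of ADAM10 is chr15:58749708-58749957 and that of ADAM17 is chr2:9555831-9556080.
ADAM10: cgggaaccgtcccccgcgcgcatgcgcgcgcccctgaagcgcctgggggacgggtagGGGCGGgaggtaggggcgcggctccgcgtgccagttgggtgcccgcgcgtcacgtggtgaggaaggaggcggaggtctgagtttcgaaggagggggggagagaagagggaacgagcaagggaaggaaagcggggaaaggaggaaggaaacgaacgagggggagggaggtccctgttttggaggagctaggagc
ADAM17: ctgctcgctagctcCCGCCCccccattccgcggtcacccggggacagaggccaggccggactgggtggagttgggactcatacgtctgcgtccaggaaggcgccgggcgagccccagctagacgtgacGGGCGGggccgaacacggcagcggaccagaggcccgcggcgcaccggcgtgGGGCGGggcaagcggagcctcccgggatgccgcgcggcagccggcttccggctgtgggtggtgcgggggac
ADAM10 held 1 GC box and ADAM17 held 3. With 50 more bases after the start, the GC content was 68% and 74.7%, against a median of 58.7% over 35116 promoters. A GC box was found in 45% of all promoters of that length and in 30 of the 45 members matched in the table (66.7%). Of the 29 tested members matched, 23 held one. Among them were ADAM23, ADAMTS17 and ADAMTSL3, which were lower in si-SAM68 cells, so the box was not particular to ADAM10 and ADAM17. An AP-1 match was found in 4.95% of all promoters and in 1 of 45 members, MMP7. None of the 29 tested members matched held one. MMP1 and the other members without a promoter entry were not searched, so the count does not speak for them. Such matches describe letters in the window and not bound sites.

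Other ADAMs with an active site had smaller differences. ADAM9, a sheddase at a mean of 9789 per kb in si-CTRL against 11308 per kb in si-SAM68 cells, held 57135, 57375 and 59703 reads against 65520, 69100 and 66609. Its groups did not overlap (log2 fold change 0.21, SE 0.07, adjusted p = 0.0906). ADAM19 held 44178, 36408 and 35572 against 45381, 51326 and 43244 reads, with si-CTRL replicate 1 above the lowest si-SAM68 library (log2 fold change 0.27, adjusted p = 0.123). ADAM12, which sheds HB-EGF, held 851.1, 721.6 and 717.7 against 596.4, 719.4 and 583.1 reads. Its groups overlapped by a few reads (log2 fold change -0.27, adjusted p = 0.172). ADAM15 held 6785, 6739 and 6676 against 7092, 6292 and 6006 reads (log2 fold change -0.06, adjusted p = 0.661), and its locus lies within that of SHC1. ADAM8 had a log2 fold change of 0.31 (adjusted p = 0.238), and the low ADAM20 and ADAM21 had values of 1.09 and -0.75 on overlapping groups. Over the 9 tested ADAMs with an active site the median was 0.27, with 6 above and 3 below 0 and none regulated at the study thresholds. These counts include ADAM20 (means of 7.86 in si-CTRL and 16.0 in si-SAM68) and ADAM21 (13.7 and 8.79). Each of them passed the filter through its higher group alone.

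The ADAMs without a zinc-binding motif act in adhesion and, for ADAM11, ADAM22 and ADAM23, as partners of secreted LGI proteins in neural tissue. Of the 4 tested, 3 were regulated and lower, beside 4.83% of all loci, and the median log2 fold change was -0.66. Of these 3, ADAM11 alone had an adjusted p under 0.05. ADAM11 (GSHG0012553; hg19 chr17:42836547-42859212) held 616.2, 430.0 and 393.6 reads in si-CTRL against 334.5, 287.9 and 278.1 in si-SAM68 cells. All si-SAM68 libraries were below the controls, of which replicate 1 was far above the others (log2 fold change -0.65, SE 0.17, adjusted p = 0.037). Without si-CTRL replicate 1 ADAM11 was no longer past the fold threshold, and its adjusted p was 0.0716, 0.111 and 0.152 without si-SAM68 replicates 1, 2 and 3.

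ADAM23 and ADAM32 met the study thresholds but not the adjusted p. ADAM23 (GSHG0017139; hg19 chr2:207308368-207485852) held 59.99, 80.4 and 90.3 reads in si-CTRL against 36.3, 57.03 and 51.4 in si-SAM68 cells. The highest si-SAM68 value lay just under the lowest control (log2 fold change -0.67, SE 0.24, limma adjusted p = 0.111). The call of ADAM23 was lost without si-CTRL replicate 2, si-CTRL replicate 3 or si-SAM68 replicate 1. ADAM32 (GSHG0028964; hg19 chr8:38965048-39142435) held 38.7, 48.4 and 68.4 against 20.1, 36.8 and 21.2 reads. Its groups were separated by si-SAM68 replicate 2 and si-CTRL replicate 1, which differed by a few reads (log2 fold change -0.98, SE 0.32, limma adjusted p = 0.0771), and the call was lost without si-CTRL replicate 3. ADAM22, the fourth of this group, lay at 543 ± 33.3 in si-CTRL against 617 ± 3.09 in si-SAM68 cells (SD, n = 3). Its groups did not overlap, in the opposite direction (log2 fold change 0.19, adjusted p = 0.245).

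**Figure D4:**
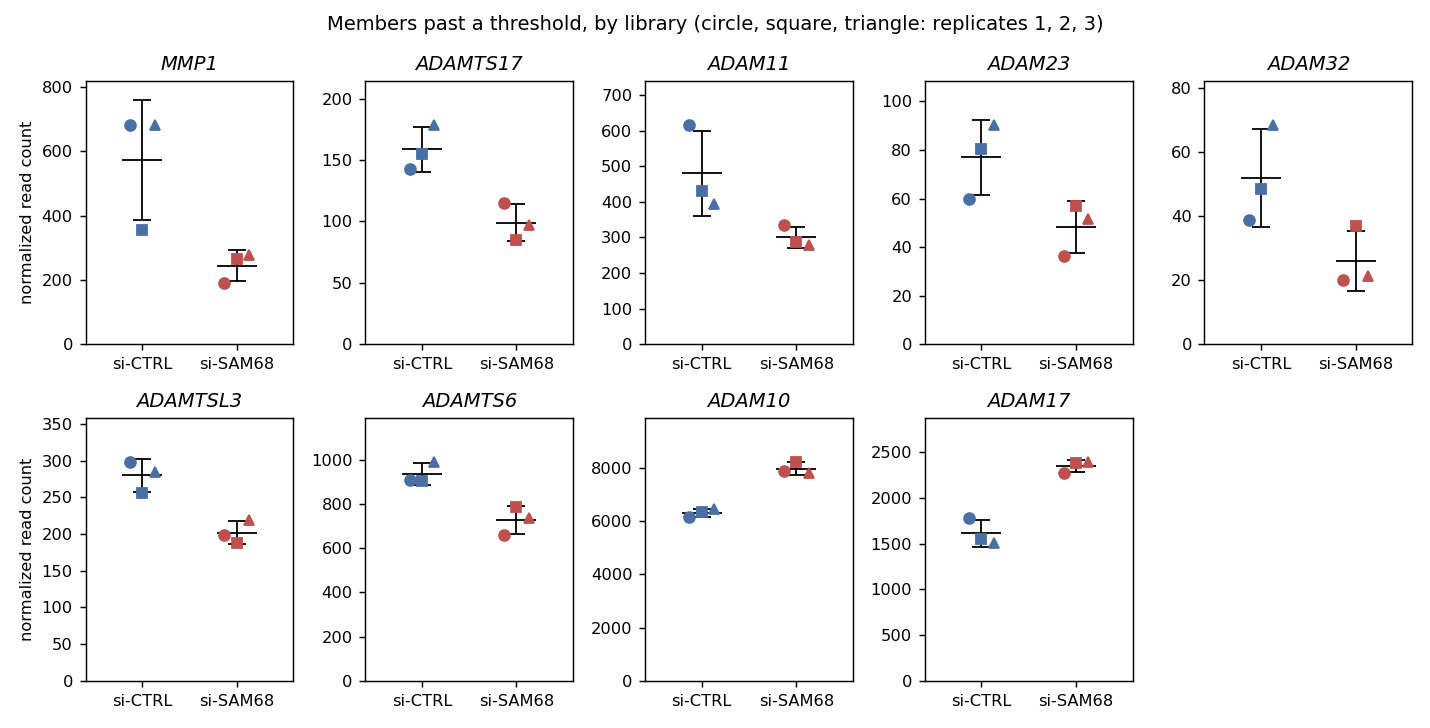
Normalized reads per library for the 9 members past a threshold, with the mean and SD of each group of 3 and symbols for the replicate number. ADAM10 and ADAM17 are higher and the other 7 lower in si-SAM68 cells, with no overlap of the groups in any panel.

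Among the ADAMTS genes the log2 fold change was below 0 for 11 of the 14 tested, with a median of -0.31. This count includes ADAMTS9 (means of 17.1 in si-CTRL and 8.91 in si-SAM68), which passed the filter through si-CTRL alone. The values did not overlap for 6 genes that were lower and 1 that was higher, beside 17.3% and 16.6% of all loci. ADAMTS17, a secreted protease linked to inherited short stature with eye defects, was the one regulated at the study thresholds. Its locus (GSHG0010759; hg19 chr15:100511643-100882210) held 142.5, 155.0 and 178.7 reads in si-CTRL against 114.8, 84.6 and 97.2 in si-SAM68 cells. The groups stood apart (log2 fold change -0.68, SE 0.17, adjusted p = 0.0329). Its adjusted p was 0.0552 with the replicate block, and its call at the study thresholds was lost without si-SAM68 replicate 2. The adjusted p was 0.0616 and 0.107 without si-CTRL replicates 2 and 3, and 0.121 and 0.115 without si-SAM68 replicates 2 and 3.

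ADAMTS6 (GSHG0024830; hg19 chr5:64444564-64777747) held 907.4, 904.6 and 991.5 reads in si-CTRL against 659.9, 788.3 and 735.0 in si-SAM68 cells. Every si-SAM68 library was below the controls (log2 fold change -0.36, SE 0.10, adjusted p = 0.0465, or 0.0629 with the replicate block), and leaving out any library but si-CTRL replicate 1 brought the adjusted p to between 0.0791 and 0.139. ADAMTS1, which cuts the proteoglycans versican and aggrecan and was the most abundant ADAMTS per kb, held 12561, 10386 and 12988 reads against 8501, 9929 and 9754. The groups did not overlap, but the adjusted p was 0.0575 (log2 fold change -0.35, SE 0.10). Further genes with lower and separate si-SAM68 values were the procollagen N-proteinase ADAMTS2 (log2 fold change -0.45, adjusted p = 0.13), the aggrecanase ADAMTS5 (-0.45, adjusted p = 0.143) and ADAMTS7 (-0.18, adjusted p = 0.298), whose locus overlaps the abundant MORF4L1.

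ADAMTS16 went the other way, with 1107, 951.1 and 1098 reads in si-CTRL against 1166, 1295 and 1152 in si-SAM68 cells. All si-SAM68 values were higher, by a small margin (log2 fold change 0.20, adjusted p = 0.231). The low ADAMTS9 (log2 fold change -0.83) and ADAMTS18 (-0.79) had wide, overlapping groups. ADAMTS10, ADAMTS12, ADAMTS13, ADAMTS14 and ADAMTS15 overlapped too, with values from -0.27 to 0.27.

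ADAMTSL proteins sit in the matrix, where several bind fibrillin microfibrils. ADAMTSL3 (GSHG0010099; hg19 chr15:84322838-84708594) held 298.7, 255.7 and 285.2 reads in si-CTRL against 198.5, 187.7 and 218.9 in si-SAM68 cells. The groups did not overlap (log2 fold change -0.47, SE 0.13, adjusted p = 0.043, or 0.0588 with the replicate block), and the fall was under 1.5-fold. Without any single library its adjusted p was between 0.0513 and 0.158. ADAMTSL1, ADAMTSL4 and ADAMTSL5 had log2 fold changes of 0.02, -0.30 and -0.17 on overlapping groups.

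The pathway around these proteases was read from a list of 82 partner genes (activating convertases, regulators, shed proteins, substrates, other metalloproteases, inhibitors and transcription factors), of which 70 were tested. At the study thresholds 6 of 70 (8.57%) were regulated, beside 7.67% of all loci, and all 6 were lower. An adjusted p under 0.05 was reached by 11 of 70 (15.7%), of which 6 were lower and 5 higher, beside 10.7% of all loci (6.23% lower and 4.47% higher). The median log2 fold change over the 70 was -0.13, with 23 above and 47 below 0. Without si-CTRL replicate 2 the number of regulated partners was 11.

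Furin (FURIN), the convertase that removes the prodomain of ADAM10, ADAM17, MMP14 and many ADAMTS enzymes, fell. Its locus on chromosome 15 (hg19 chr15:91411822-91426688) held 6257, 4953 and 5276 reads in si-CTRL against 3094, 3106 and 2859 in si-SAM68 cells. The si-SAM68 libraries were tight and far below the controls. The mean went from 5495 ± 679 to 3019 ± 139 (SD, n = 3), or 54.9% of the control (log2 fold change -0.86, SE 0.10, adjusted p = 0.00101), and the adjusted p stayed under 0.05 in all 18 alternatives. The log2 fold change was below 0 for all 4 convertases tested, with a median of -0.40, but FURIN alone passed a threshold. PCSK5 and PCSK6 had values of -0.51 and -0.28 (limma adjusted p = 0.216 and 0.105). PCSK7 had overlapping groups (log2 fold change -0.15, limma adjusted p = 0.42).

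Among the 9 regulators of ADAM10 and ADAM17, 6 had a log2 fold change above 0. TSPAN5, TSPAN10, TSPAN17, TSPAN33 and FRMD8 had overlapping groups. TSPAN14 was lower without overlap (log2 fold change -0.24, limma adjusted p = 0.142). TSPAN15, a tetraspanin that escorts ADAM10, rose, with 1581, 1559 and 1625 reads in si-CTRL against 2353, 2237 and 1929 in si-SAM68 cells (log2 fold change 0.45, SE 0.09, adjusted p = 0.0159). The adjusted p was 0.0654 and 0.0782 without si-SAM68 replicates 1 and 2. The pseudoproteases RHBDF1 and RHBDF2, which carry ADAM17 to the surface, had values of -0.30 and 0.28 (adjusted p = 0.0944 and 0.0784).

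Of the 16 shed membrane proteins tested, 7 were above and 9 below 0. HBEGF, an EGF receptor ligand released by ADAM17 and ADAM12, held 2037, 1286 and 1651 reads in si-CTRL against 901.6, 1060 and 960.7 in si-SAM68 cells, and fell without overlap (log2 fold change -0.75, SE 0.15, adjusted p = 0.0147). The interleukin 6 receptor (IL6R), shed by ADAM17 and ADAM10, held 163.7, 116.2 and 133.1 against 66.5, 56.1 and 83.8 reads, and fell (log2 fold change -0.995, adjusted p = 0.0155). In the other direction, the substrates NOTCH2 (0.51, adjusted p = 0.0396), MET (0.44, adjusted p = 0.0178), L1CAM (0.39, adjusted p = 0.0397) and CDH2 (0.31, adjusted p = 0.0447) had higher log2 levels. With the replicate block the adjusted p of CDH2 was 0.0592. Leaving out single libraries brought the adjusted p past 0.05 for HBEGF (0.0686 and 0.0785 without si-SAM68 replicates 1 and 3) and IL6R (0.0588 and 0.0586 without si-SAM68 replicates 1 and 2). The log2 fold change of HBEGF then ranged from -0.916 to -0.584, and the smallest of these falls was just under 1.5-fold. For MET this held without si-CTRL replicates 2 and 3 and si-SAM68 replicates 2 and 3 (0.0509 to 0.0849). For L1CAM it held without si-CTRL replicates 2 and 3 and si-SAM68 replicates 1 and 2 (0.0505 to 0.134), for NOTCH2 without si-CTRL replicate 3 or any si-SAM68 library (0.0823 to 0.139), and for CDH2 without any library but si-CTRL replicate 1 (0.109 to 0.163). TNF was too low for a test, at 10.4 ± 1.11 in si-CTRL against 1.66 ± 1.47 in si-SAM68 cells (SD, n = 3).

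All 6 tested ADAMTS substrates had log2 fold changes below 0, with a median of -0.26, beside 9258 of all 18849 loci tested. FBN1, FBN2, THBS1 and VWF had overlapping groups and log2 fold changes from -0.33 to -0.13 (limma adjusted p = 0.345 to 0.604). RELN (reelin), a secreted protein cut by ADAMTS enzymes, held 554.9, 460.1 and 412.6 reads in si-CTRL against 120.9, 179.4 and 139.6 in si-SAM68 cells. The groups stood far apart (log2 fold change -1.70, SE 0.17, adjusted p = 0.000676). COMP, a cartilage matrix protein, held 86.2, 75.5 and 83.7 against 57.4, 51.5 and 32.4 reads (log2 fold change -0.82, limma adjusted p = 0.0567). Leaving out single libraries gave COMP log2 fold changes of -0.981 to -0.578, the smallest fall being just under 1.5-fold. Over all alternatives its adjusted p was 0.0455 to 0.169. FOS, a subunit of AP-1, held 185.0, 163.7 and 203.4 against 77.6, 92.9 and 103.9 reads, and fell (log2 fold change -1.01, adjusted p = 0.00627). It was 1 of 12 transcription factors of MMP promoters tested, of which 9 had values below 0. The AP-1 genes FOSL1, FOSL2 and JUN were more abundant, with si-CTRL means of 47648, 11389 and 9063 reads. Their log2 fold changes were -0.25, 0.24 and -0.02. FOSB, JUNB and JUND had -0.50, -0.20 and 0.14. Of these AP-1 genes only FOS passed a threshold. The membrane metalloprotease MME (neprilysin) held 23703, 23837 and 24422 against 18194, 20483 and 20213 reads (log2 fold change -0.29, adjusted p = 0.0354, or 0.0515 with the replicate block, and 0.0801 to 0.111 without any library but si-CTRL replicate 1).

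**Figure D5:**
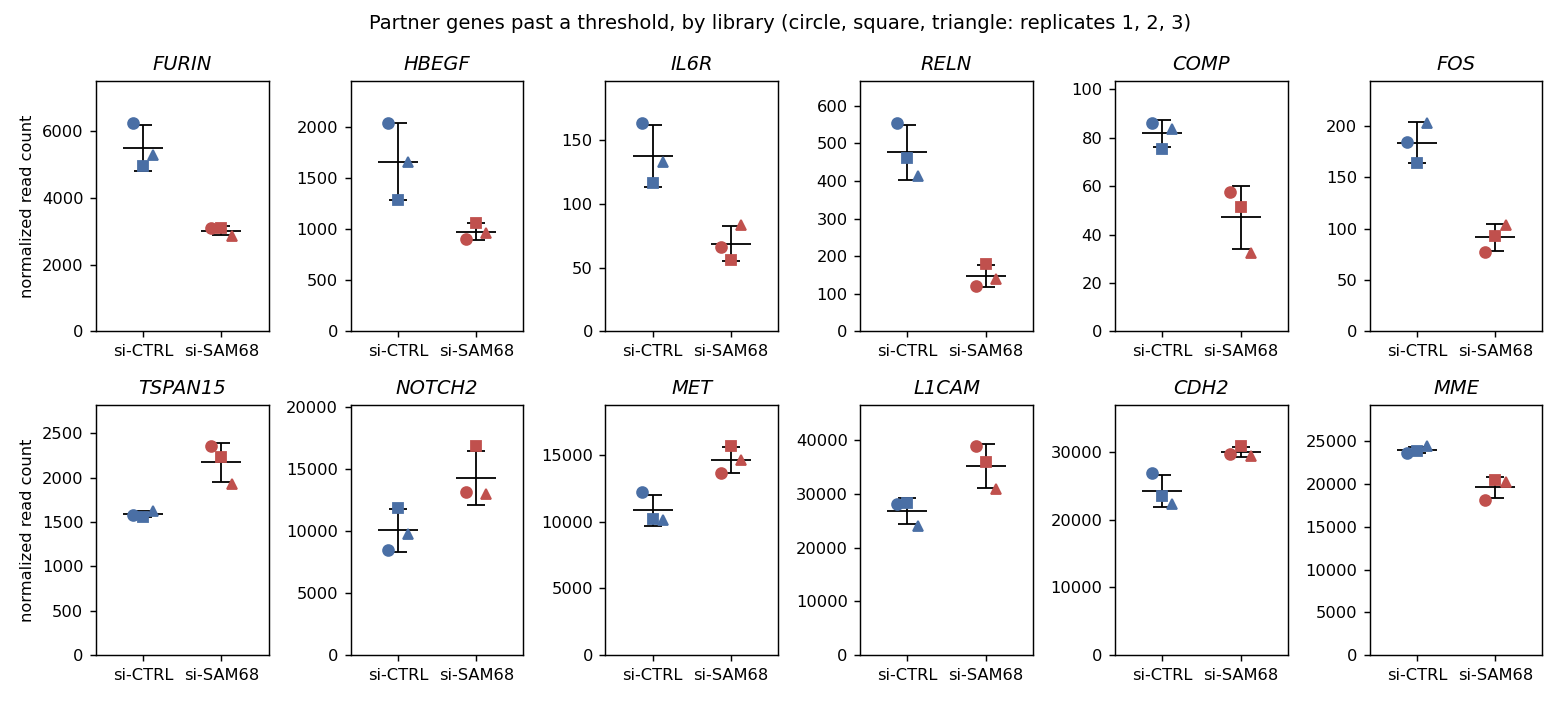
Normalized reads per library for the 12 partner genes past a threshold, with the mean and SD of each group of 3 and symbols for the replicate number. FURIN, HBEGF, IL6R, RELN, COMP, FOS and MME are lower in all si-SAM68 libraries, and TSPAN15, NOTCH2, MET, L1CAM and CDH2 are higher.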

How the data were processed

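Per the submitters' processing notes, reads were aligned to hg19 with STAR 2.4.0, and FastQC, Picard, SAMtools and DESeq2 were also named. The counting program and its use of strand are not given in the sources used here, although the kit was stranded, so that reads of overlapping loci may be shared. The methods of the study differ from the labels in the harvest time, the medium and the RNA kit, and the labels were followed. The authors deposited a normalized signal, that is read counts per locus divided by DESeq2 size factors. Every value was a whole multiple of 1 step per library within a tolerance of 0.01, so whole reads were recovered (100% of values) and gave the depth. Libraries of the same group differed by more than sampling noise.

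Tests took in the loci whose mean over 6 libraries reached 10 and were run in R 4.3.3 with limma 3.58.1 (eBayes with trend) on log2(value + 1), which understates the change of low genes. Standard errors are from that fit and adjustment was by Benjamini-Hochberg over all 18849 loci tested. A locus was called regulated at the thresholds of the study (p of at most 0.05 and fold change of at least 1.5). Alternatives included a pseudocount of 0.1 or 5, no filter or a minimum mean of 50, TMM or quantile scaling, no trend or a robust trend, each library left out, and count tests on the recovered reads with edgeR 4.0.16 and DESeq2 1.42.0. edgeR and DESeq2 then called 1498 and 1334 loci regulated. The fit was tested on simulated data. Libraries with the same replicate number deviated together from their group means (correlations of 0.105, 0.231 and 0.125). The other pairs gave -0.125 to 0.00687, but deviations within a group cancel out, so these values are not independent of the first. The main fit did not pair the libraries. Because the numbers may pair them, a replicate block was run as an alternative.

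Values per library are given for each member past a threshold, for the 4 TIMPs and for a list of members with fixed roles, and for the partner genes past a threshold most values per library are given. The other members are given by range and count, and those named among them with a value were chosen after their values were seen. The members and all lists were chosen with earlier results of these data known. Exon lengths are the union of exons of the GENCODE release 29 basic annotation, matched by symbol, and 72 of 73 members had one. The hg19 positions are those of the deposited table, and no position was moved between builds.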

Additional observations from a re-analysis of the deposited data

How the results depend on the processing

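The number of regulated loci, 1445, was 2240 with no filter on low values, 894 with an adjusted p under 0.05 and a 1.5-fold change, and 428 at 2-fold; leaving out libraries gave 1301 to 1831. The 5 regulated members became 8 with no filter (adding ADAM33, TIMP4 and ADAMTS19), 3 with the adjusted p, 1 at 2-fold, and 5 to 6 without single libraries. Those without single libraries kept 3 to 5 of the 5, with 3 kept without si-CTRL replicate 3. Between them they added MMP3, ADAM17, ADAM20, ADAM21, ADAMTS2, ADAMTS9 and ADAMTS18, so not every added member was lower. The 7 members with an adjusted p under 0.05 became 3 with no filter, 1 without the trend (ADAM17), 4 with the replicate block, 10 in DESeq2, 7 in edgeR (5 with the block, added after seeing the data) and 1 to 11 without single libraries. The 6 regulated partner genes became 2 at 2-fold, 11 by adjusted p alone, and 6 to 11 without single libraries. The replicate block left 1514 loci regulated and changed no call beyond those given beside the results. Without single libraries the log2 fold change changed sign for TIMP1 (range -0.108 to 0.0344, above 0 without si-CTRL replicate 1 or si-SAM68 replicate 3), MMP9 (-0.374 to 0.0101, above 0 without si-CTRL replicate 1) and MMP13 (-0.000533 to 0.24, below 0 without si-SAM68 replicate 2). Apart from the settings that remove libraries or loci or change the threshold, the cause of these shifts was not tested. Of 683 values of single named genes under 18 alternatives, 578 kept direction and side of the threshold, 88 lost and 13 gained an adjusted p under 0.05, and 4 reversed. The 25 members with a mean under 10 were left out by the filter, and those of them with reads entered the fit with no filter alone.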
